A study of Mus musculus with 2 samples.

Results

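Chemokines are small secreted proteins that draw leukocytes along a gradient, and lymphocytes are a source of several of them. The 5 genes described here, Ccl3, Ccl4, Ccl5, Xcl1 and Ccl1, were taken by name as chemokines of lymphocytes, and were 5 of the 32285 genes counted in the adrenal gland leukocytes. Their UMIs (unique molecular identifiers, 1 per captured transcript) were compared across natural killer (NK) cells and cells like type 1 innate lymphoid cells (ILC1-like), T cells, ILC2-like cells and myeloid cells. The classes were drawn from marker genes that included none of the 5, and the 5 genes were also kept out of the features used for clustering.

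The cells were DAPI-negative CD45+ leukocytes sorted from digested adrenal glands of C57BL/6 J mice aged 7 weeks. No treatment or transgene is named for them. There were 2 droplet libraries (10x Genomics, 3′ v3.1), 1 from females and 1 from males. How many animals each library pooled was not given, and sex and library cannot be told apart. No test was run between the sexes, classes were compared within each library, and no p-value is given. The 95% intervals cover counting error only, exact Poisson for levels, exact Clopper-Pearson for shares of cells and exact conditional binomial for ratios.

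Ccl3 (MIP-1α), Ccl4 (MIP-1β) and Ccl5 (RANTES) are CC chemokines made by activated or cytotoxic lymphocytes, and Ccl3 and Ccl5 bind Ccr1. Xcl1 (lymphotactin) binds Xcr1, the receptor of cross-presenting dendritic cells. Ccl1 (TCA-3) is a product of activated T cells and binds Ccr8. Conventional NK cells circulate and carry granules of perforin and granzymes, whereas ILC1 stay in tissues and share many receptors with them.

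In the mm10 annotation (GENCODE M21) each of the 5 genes has 3 exons. Xcl1 (ENSMUSG00000026573) lies apart from the others on the minus strand of chr1:164931644-164935527. The others lie on chromosome 11. Ccl1 (ENSMUSG00000020702) is on the minus strand at chr11:82176657-82305690, with its coding transcript at chr11:82176659-82179812. Ccl5 (ENSMUSG00000035042) follows 1.35 Mb away on the minus strand at chr11:83525778-83530518. Ccl3 (ENSMUSG00000000982) lies 117 kb beyond it on the minus strand at chr11:83647844-83649355, and Ccl4 (ENSMUSG00000018930) on the plus strand at chr11:83662584-83664683. The start sites of Ccl3 and Ccl4 are 13228 bases apart with 0 genes between them, so this divergent pair are neighbours. No coding transcript of the 5 overlaps a gene on its own strand, and the rest of the Ccl1 gene span was not checked. The Xcl1 transcript overlaps Gm20743 on the opposite strand.

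The family's defining feature is in the coding sequence, and the stretch around the first mature cysteines is given for each member with those cysteine codons in capitals. The 4 CC chemokines hold 2 adjacent cysteine codons and Xcl1 holds 1, and from there to the stop codon they hold 4 and 2 cysteine codons. In the CC genes the coordinates span an intron that the sequence leaves out.
Ccl3 (chr11:83648628-83649202, minus strand): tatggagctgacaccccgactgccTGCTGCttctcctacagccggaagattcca
Ccl4 (chr11:83662738-83663511, plus strand): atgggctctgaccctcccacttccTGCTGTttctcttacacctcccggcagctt
Ccl5 (chr11:83529218-83530389, minus strand): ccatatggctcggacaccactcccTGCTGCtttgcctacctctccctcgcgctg
Ccl1 (chr11:82178084-82179672, minus strand): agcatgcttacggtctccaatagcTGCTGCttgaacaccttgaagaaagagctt
Xcl1 (chr1:164932951-164933001, minus strand): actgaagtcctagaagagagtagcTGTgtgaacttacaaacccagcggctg
Over the whole coding sequence Ccl3 and Ccl4 were the most alike, at 68.1% identical bases, followed by Ccl3 and Ccl5 at 61.6% and Ccl4 and Ccl5 at 59.9%. The other pairs lay between 45.5% and 53.4%.

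Promoter entries were at hand in RefSeq (GRCm38.p6) for 3 of the 5 genes. Those of Xcl1, whose level went with the NK cluster below, and of Ccl1, the rarest member, are shown from 250 to 11 bases before the start. Capitals mark matches to a T-box (TCACACC), RUNX (TGTGGT), AP-1 (TGANTCA), STAT (TTCNNNGAA) or kappa B (GGG and TTCC with 3 bases between) motif on either strand.
Xcl1 promoter (chr1:164935533-164935772, minus strand): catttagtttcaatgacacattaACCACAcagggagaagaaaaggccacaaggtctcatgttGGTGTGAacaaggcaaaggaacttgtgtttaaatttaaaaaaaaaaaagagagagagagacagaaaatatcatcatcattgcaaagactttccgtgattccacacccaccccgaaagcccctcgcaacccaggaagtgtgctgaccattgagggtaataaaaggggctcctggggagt
Ccl1 promoter (chr11:82179823-82180062, minus strand): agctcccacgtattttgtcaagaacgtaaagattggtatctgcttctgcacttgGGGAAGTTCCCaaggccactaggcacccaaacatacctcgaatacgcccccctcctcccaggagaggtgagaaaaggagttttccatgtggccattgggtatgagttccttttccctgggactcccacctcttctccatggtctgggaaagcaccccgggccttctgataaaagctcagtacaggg
The Xcl1 promoter held a RUNX match 227 and a T-box match 188 bases before the start, both on the opposite strand. The Ccl1 promoter held overlapping kappa B matches 196 and 195 bases before the start. Of 32851 promoters, 3.22% held a T-box, 13.6% a RUNX, 6.58% an AP-1, 6.77% a STAT and 4.34% a kappa B match, so each is a description of letters and not of bound factors.

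The filters left 3693 cells with 15028302 UMIs in the female library (median 3492 per cell) and 2447 cells with 9024150 UMIs in the male one (median 2997). The libraries shared 2 barcodes. Of 22 clusters, 19 were named from marker lists and 3 were left unnamed, and the cells fell into 16 named classes. The NK cells made up 1 cluster led by Prf1 (perforin) and 1 led by Itga1 (the CD49a integrin). Each cell was then called conventional or ILC1-like by its own gate genes, and 34 female and 6 male cells with a tie were called neither. There were 500 female and 225 male conventional NK cells and 347 and 141 ILC1-like cells. The gate fixed a difference in its own genes, given here as a description, with Eomes at 213 and 229 CPM (a gene's UMIs over all UMIs of the class, on the usual CPM scale) in conventional NK cells against 21.9 and 1.28 CPM in ILC1-like cells. Cxcr6, a residency receptor, ran the other way, at 29.6 and 47.8 CPM against 280 and 382 CPM. The gate was not clean, as 166 female and 67 male conventional NK cells sat in the Itga1-led cluster. Cells within 1 UMI of the gate's boundary numbered 91 of 881 in the female and 26 of 372 in the male library.

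Most UMIs of 4 members lay in the NK compartment. NK and ILC1-like cells, with those tied at the gate, were 23.9% of female and 15.2% of male cells. They held 85.2% and 87.2% of the Xcl1 UMIs, 79.5% and 74.2% of Ccl5, 74.3% and 79.0% of Ccl4, and 70.8% and 78.8% of Ccl3. For Ccl1 the share was 44.3% and 52.5%, and T cells held 44.3% in both libraries. T cells were the next source of Ccl5, with 16.7% and 22.4%, and of Xcl1, with 11.9% and 11.3%. For Ccl3 the next source was the class of macrophages outside the Lyve1-high and Aldh1a2-high subsets, called other macrophages here, with 24.5% and 17.4%. For Ccl4 they held 14.6% and 16.7%.

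**Figure D1:**
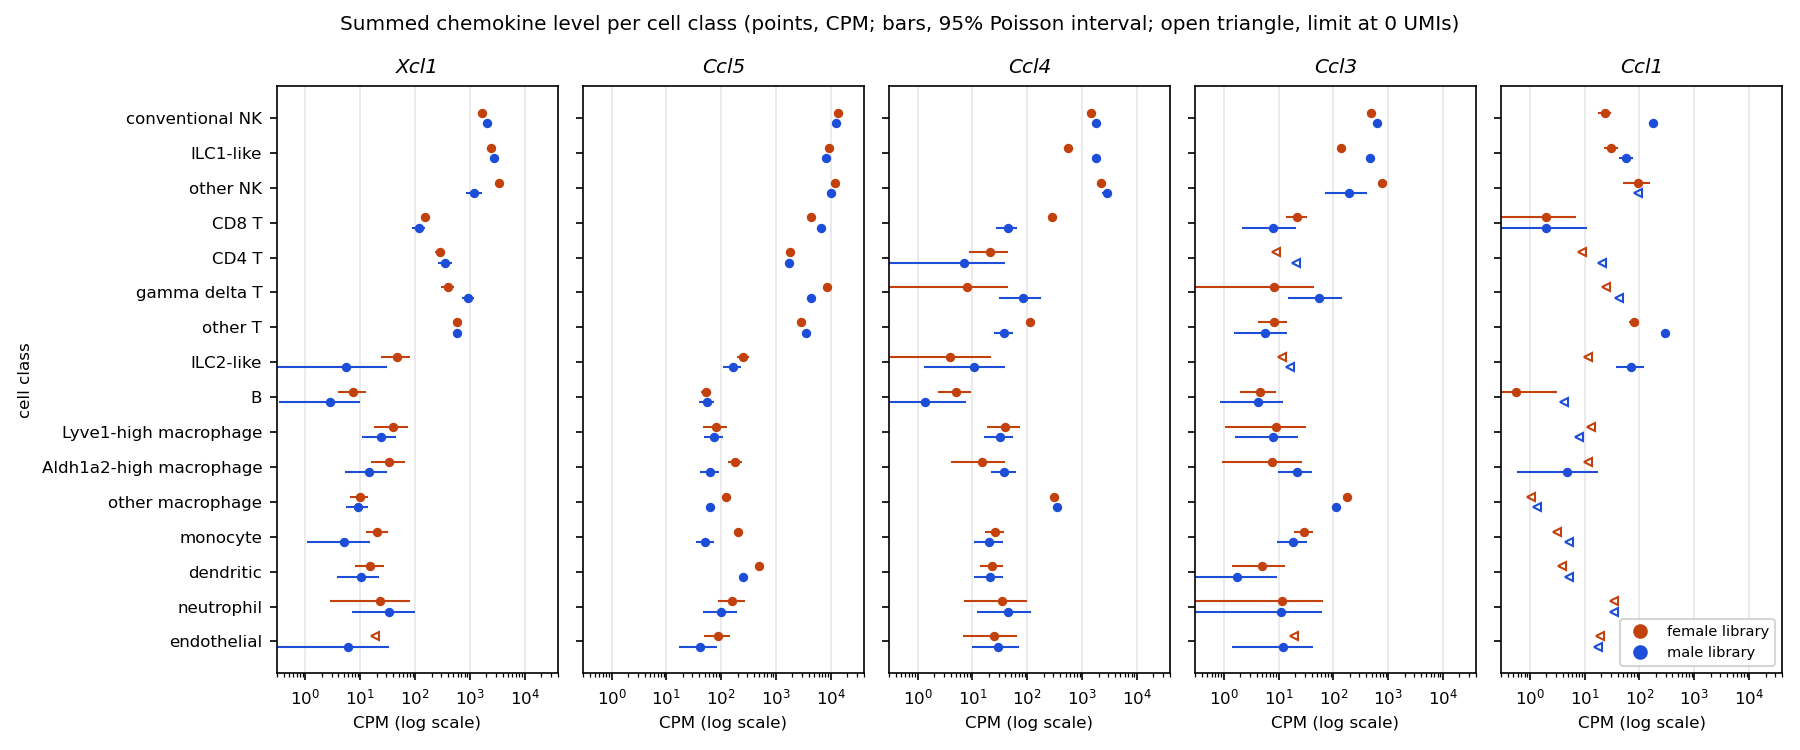
Level of each member (CPM, log axis) in every named cell class, female and male libraries side by side, with bars for exact Poisson 95% intervals. Xcl1 and Ccl5 were highest in NK and ILC1-like cells in both libraries, and Ccl3 and Ccl4 had a second source in other macrophages.

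Among the 4 abundant members Xcl1 was the one that was higher in ILC1-like than in conventional NK cells in both libraries. Its level was 2385 CPM (95% interval 2311 to 2461) in female and 2815 CPM (2698 to 2935) in male ILC1-like cells. In conventional NK cells it was 1702 CPM (1649 to 1756) and 2019 CPM (1938 to 2103). The ratio was 1.40 (1.34 to 1.47) in the female and 1.39 (1.31 to 1.48) in the male library, under the 2-fold difference that 1.76% and 1.83% of all genes tested passed in this direction. Detection moved the same way, since 93.4% and 97.2% of ILC1-like cells held an Xcl1 UMI against 61.6% and 68.4% of conventional NK cells. When every cell was thinned to 1000 UMIs the shares were 70.5% and 73.6% against 43.2% and 49.1%. The median ILC1-like cell held 7 Xcl1 UMIs in the female and 11 in the male library, against 2 and 3 in conventional NK cells, while the highest single cells, with 225 and 235 UMIs, were conventional.

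Within the conventional NK cells Xcl1 followed the cluster. Those of the Prf1-led cluster held 1158 and 1130 CPM and those of the Itga1-led cluster 2340 and 3366 CPM, ratios of 2.02 and 2.98 where 1.8% and 1.62% of genes passed 2-fold. In the female library the latter did not differ from the ILC1-like cells beyond counting error, with a ratio of 0.981 (0.933 to 1.03), whereas in the male library they were higher, at 1.2 (1.12 to 1.28). Between whole clusters the ratio of Itga1-led to Prf1-led cells was 2.08 (1.96 to 2.20) in the female and 2.65 (2.45 to 2.86) in the male library, past 2-fold, as were 3.48% and 3.18% of genes, and lower by that much were 3.53% and 2.68%. The male Itga1-led conventional cells leaned on few cells, since 5 of the 67 gave 47.4% of their Xcl1 UMIs.

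Ccl5 was in nearly every NK cell and was lower in ILC1-like cells. Conventional NK cells held 13823 CPM (13671 to 13976) in the female and 12456 CPM (12253 to 12662) in the male library, with a UMI in 500 of 500 and 224 of 225 cells. ILC1-like cells held 9465 CPM (9317 to 9615) and 8043 CPM (7845 to 8245). The ratio was 0.685 (0.672 to 0.698) and 0.646 (0.627 to 0.665), short of 2-fold, which 2.07% and 1.95% of genes passed in this direction. The median conventional cell held 51 Ccl5 UMIs in both libraries and the median ILC1-like cell 35 and 36. No few cells carried the level, the 5 highest conventional cells giving 3.91% and 8.69% of the UMIs.

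Ccl3 and Ccl4 were spread unevenly among NK cells, and there the libraries differed. In the female library Ccl4 was 1452 CPM (1403 to 1502) in conventional and 547 CPM (512 to 584) in ILC1-like cells, a ratio of 0.377 (0.350 to 0.406). In the male library it was 1807 CPM (1730 to 1887) and 1786 CPM (1694 to 1883), a ratio of 0.988 (0.923 to 1.06). Ccl3 was 480 CPM (452 to 510) and 140 CPM (122 to 159) in the female library, a ratio of 0.291 (0.251 to 0.335). In the male library it was 615 CPM (570 to 662) and 476 CPM (429 to 527), a ratio of 0.774 (0.681 to 0.879). Both genes were thus past 2-fold lower in female ILC1-like cells and neither in male ones, in comparisons where 2.07% and 1.95% of all genes were. The calls moved with the choice of cells. Female Ccl4 was 0.501 without cells holding genes of another lineage, and male Ccl3 was 0.450 between the Itga1-led and Prf1-led clusters. Cells holding such genes were 77 of 500 conventional and 65 of 347 ILC1-like cells in the female library. In the male library they were 30 of 225 and 25 of 141.

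Within the conventional NK cells Ccl3 followed the cluster in both libraries and Ccl4 in the female one. Ccl4 was 2156 CPM in its Prf1-led and 627 CPM in its Itga1-led conventional cells, against 1900 and 1668 CPM in the male library. Ccl3 was 696 and 228 CPM in the female and 868 and 232 CPM in the male library, ratios of 0.328 and 0.267, where 4.9% and 4.65% of genes were at least 2-fold lower.

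A small number of cells held much of these UMIs. The median conventional NK cell held 1 Ccl4 UMI in each library, the 90th percentile 12 and 20.2, and the highest cells 288 and 258. The 5 highest conventional cells gave 29.9% and 44.0% of the Ccl4 UMIs, and the 5 highest ILC1-like cells 44.4% and 53.0%. Without the 5 highest cells of each class the male ILC1-like to conventional ratio of Ccl4 was 0.838 and that of Ccl3 0.588. After thinning, a Ccl4 UMI was found in 31.8% and 32.9% of conventional cells and in 20.2% and 27.9% of ILC1-like cells. The highest female conventional cell for Ccl3 held 110 Ccl3, 205 Ccl4 and 15 Ifng UMIs. The highest male one held 156, 258 and 11. The highest female cell for Ccl4 was another one, with 288 Ccl4 and 60 Ccl3 UMIs.

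**Figure D2:**
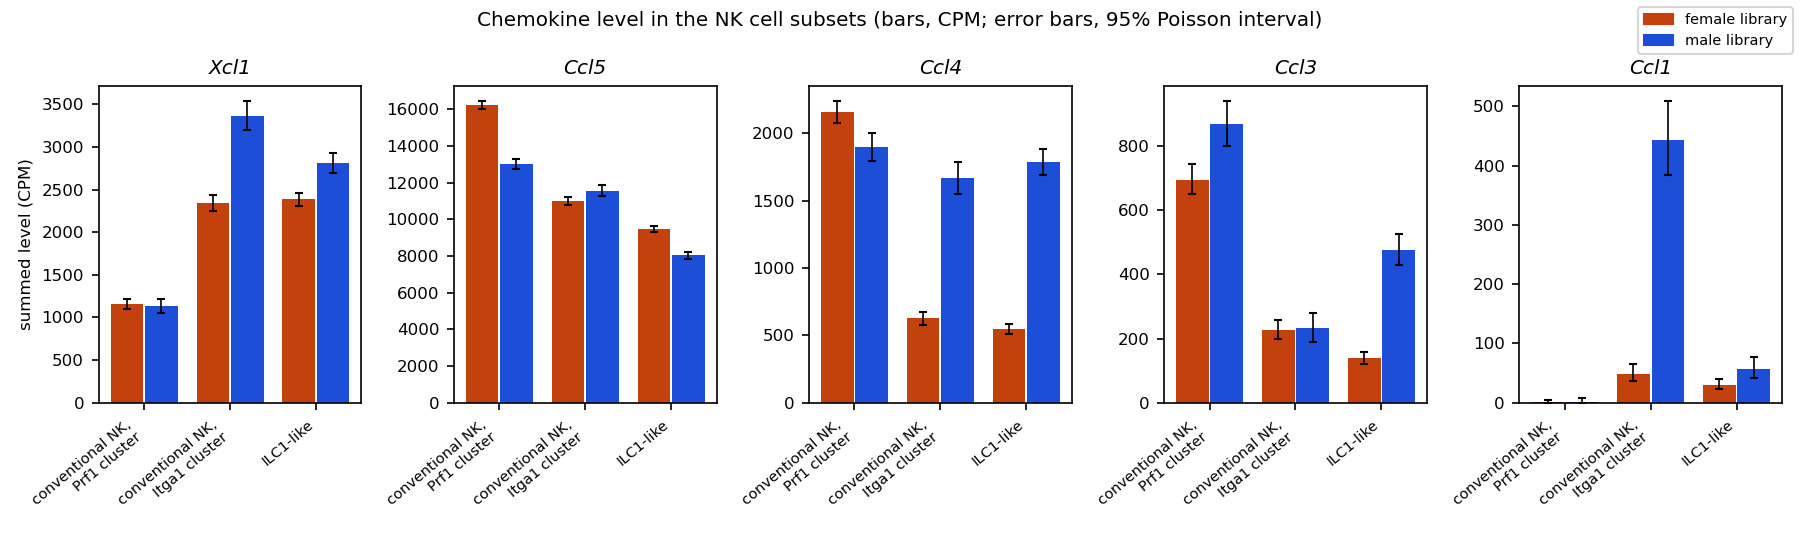
Level of each member (CPM, linear axis) in conventional NK cells of the Prf1-led and Itga1-led clusters and in ILC1-like cells, with exact Poisson 95% intervals. Female Ccl3 and Ccl4 were lowest in ILC1-like cells, and Xcl1 was lowest in the Prf1-led cluster in both libraries.

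**Figure D3:**
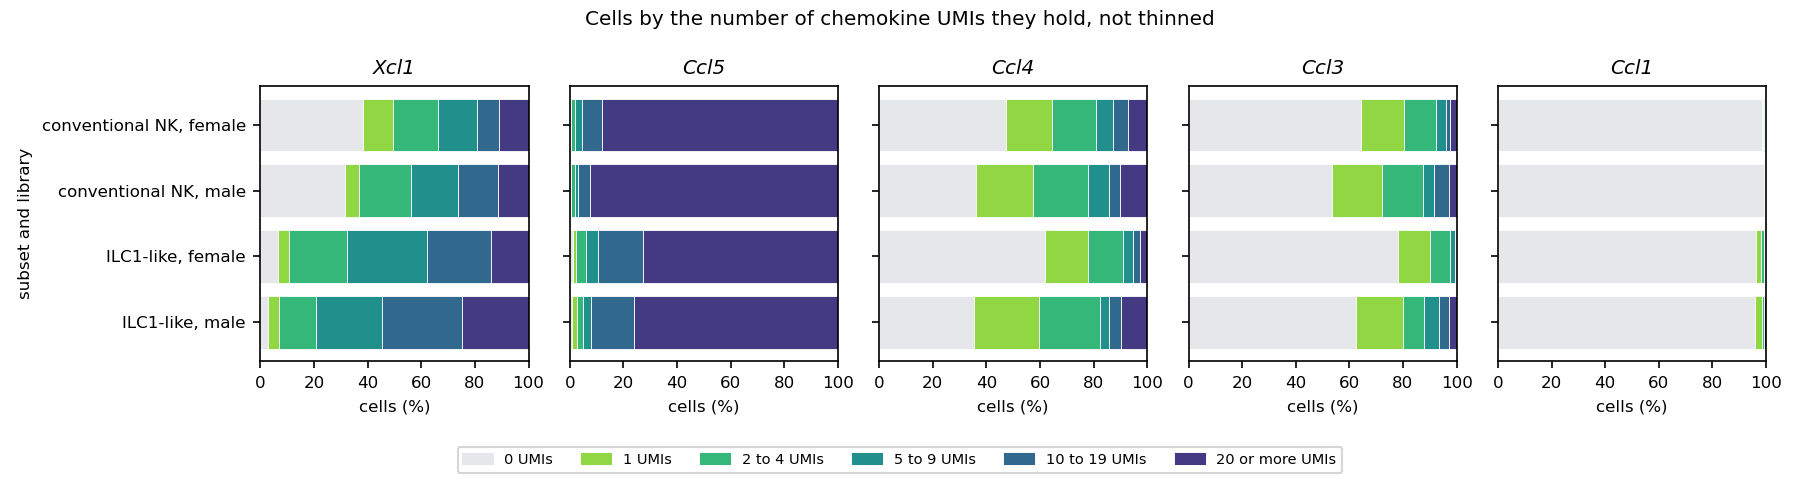
UMIs of each member per cell in conventional NK and ILC1-like cells of each library. Median Ccl5 UMIs were 51 and 35 in female conventional and ILC1-like cells and median Xcl1 UMIs 2 and 7, whereas Ccl3 and Ccl4 had long upper tails over medians of 0 or 1 UMI.

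Detection of Ccl3 and Ccl4 went together in single conventional NK cells, taken over the Prf1-led and Itga1-led clusters together. The part of the level differences between these clusters was not tested. At 1000 UMIs per cell, Ccl4 was found in 71.1% of female conventional NK cells with a Ccl3 UMI and in 22.1% of those without. The male shares were 69.6% and 23.3%. In ILC1-like cells they were 36.0% (18.0 to 57.5) and 18.9% (14.8 to 23.7) in the female and 48.0% (27.8 to 68.7) and 23.5% (16.1 to 32.3) in the male library, where the intervals overlapped in both. Other macrophages showed the same order, 54.0% and 10.1% in females and 37.5% and 14.8% in males. In conventional NK cells Xcl1 was found in 46.4% (36.2 to 56.8) of cells with Ccl3 and in 42.4% (37.5 to 47.4) of those without in the female library, and in 52.2% and 48.3% in the male, with intervals that overlapped. In ILC1-like cells it was 84.0% (63.9 to 95.5) with Ccl3 and 69.4% (64.0 to 74.4) without in the female library, and 96.0% (79.6 to 99.9) and 68.7% (59.4 to 77.0) in the male.

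**Figure D4:**
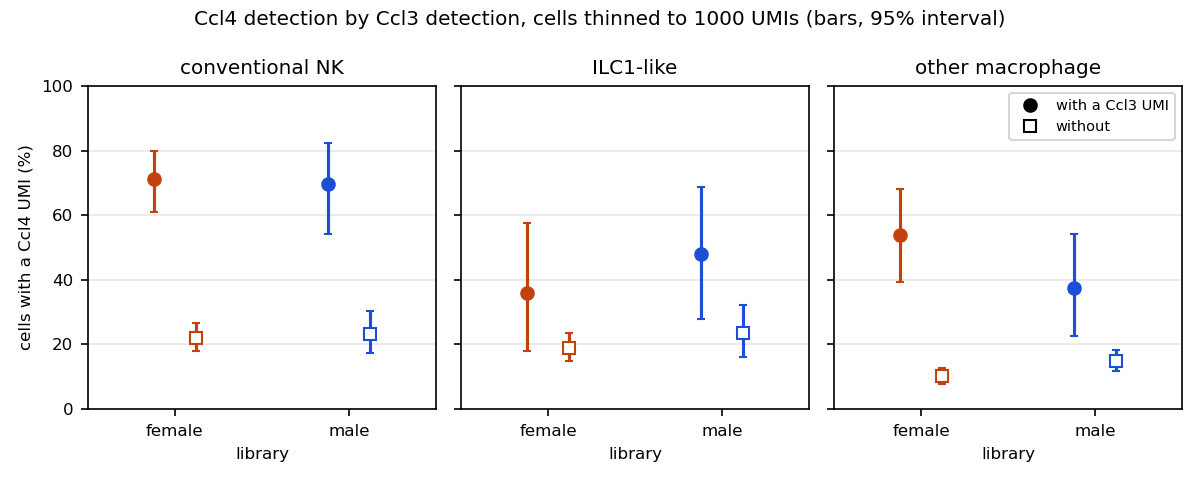
Share of cells (%) with a Ccl4 UMI among cells with and without a Ccl3 UMI, each cell thinned to 1000 UMIs, with exact Clopper-Pearson 95% intervals. Ccl4 was found in 71.1% of female conventional NK cells with Ccl3 and in 22.1% of those without.

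T cells fell into a cluster led by Cd40lg (the CD40 ligand of activated T cells) and a cluster led by Lef1 (a factor of naive T cells), and Xcl1 and most Ccl5 lay in the first. Ccl5 in CD8 T cells was 13171 and 17708 CPM in the Cd40lg-led cluster, where all 52 female and all 37 male cells had a UMI. In the Lef1-led cluster it was 977 and 1534 CPM, with a UMI in 66 and 20 cells. The ratio was 13.5 (12.4 to 14.6) and 11.5 (10.5 to 12.7), and 8.71% and 13% of genes were at least 2-fold higher in the Cd40lg-led cells. Xcl1 in the same cells was 442 and 308 CPM against 46.0 and 31.8 CPM, ratios of 9.60 and 9.70.

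T cells outside the CD4, CD8 and gamma delta gates showed Xcl1 in the Cd40lg-led cluster at 693 and 711 CPM. In the Lef1-led cluster there were 3 Xcl1 UMIs in the female and 0 in the male library. The ratio was 52.7 (18.0 to 256) in the female library and at least 29.5-fold in the male one, taken against a floor of 3 UMIs for the class. At least 2-fold higher here were 20.6% and 25.5% of genes, and the clusters thus differed in much else. Ccl5 in these cells was 2993 and 3769 CPM in the Cd40lg-led cluster and 2318 and 2354 CPM in the Lef1-led one, where it sat in 16 and 7 cells. Gamma delta T cells, 26 and 16 in number, held 8559 and 4374 CPM of Ccl5 and 397 and 933 CPM of Xcl1. CD4 T cells held 1796 and 1710 CPM of Ccl5 and 283 and 356 CPM of Xcl1.

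T cells held little Ccl3 or Ccl4. Ccl4 in CD8 T cells was 286 CPM in the female library, of which 266 of 291 UMIs came from 1 cell, and 43.8 CPM in the male one, where the 22 UMIs were spread over 10 cells. The female cell also held 15 Ccl3, 221 Ccl5 and 48 Xcl1 UMIs. Ccl3 in CD8 T cells was 21.6 and 7.97 CPM. CD4 T cells had 0 Ccl3 UMIs in both libraries, which allows up to 9.13 CPM in the female and 20.9 CPM in the male library.

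ILC2-like cells, innate lymphocytes that make type 2 cytokines, held far less of Xcl1, Ccl5 and Ccl3 than ILC1-like cells, a comparison in which 10.2% and 13.6% of genes were at least 2-fold higher in ILC1-like cells. Their Xcl1 was 46.5 and 5.41 CPM, and 11 of the 12 female UMIs were in 1 cell that also held 4 Ncr1 and 3 Klrb1c UMIs. Their Ccl5 was 256 and 162 CPM, and they had 0 Ccl3 UMIs in both libraries, allowing up to 11.6 and 16.2 CPM.

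B cells, which are not known as a main source of these genes, were taken as a yardstick for stray UMIs, at a median of 2216 and 1780 UMIs per cell against 3863.5 and 4604 in conventional NK cells. They held 52.9 CPM (42.7 to 64.7) and 55.2 CPM (39.4 to 75.2) of Ccl5, and 5.99% and 6.69% had a UMI after thinning. Xcl1 in B cells was 7.31 and 2.76 CPM, Ccl4 was 5.06 and 1.38 CPM, and Ccl3 was 4.50 and 4.14 CPM. Xcl1 in other macrophages, at 9.77 and 9.13 CPM, in monocytes, at 20.6 and 5.09 CPM, and in dendritic cells, at 15.3 and 10.3 CPM, is given beside that level. It was 39.7 and 23.7 CPM in Lyve1-high macrophages, on 9 UMIs in each library, and 33.9 and 14.4 CPM in Aldh1a2-high macrophages, on 9 and 6 UMIs. Some NK markers were higher there too, though female Lyve1-high macrophages held 0 Ncr1 UMIs against 2.25 CPM in female B cells. In male Lyve1-high macrophages Gzma was 29.0 and Ncr1 10.5 CPM, against 13.8 and 1.38 CPM in male B cells. Male Aldh1a2-high macrophages held 9.61 CPM of Nkg7 against 16.6 CPM in male B cells. Nkg7 was 70.6 and Klrb1c 26.5 CPM in female Lyve1-high macrophages, and Gzma was 82.9 and Nkg7 33.9 CPM in female Aldh1a2-high macrophages, against 7.87 CPM of Nkg7, 0.562 of Klrb1c and 27.6 of Gzma in female B cells, and their part in these levels was not tested.

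Other macrophages were the myeloid source of Ccl3 and Ccl4. They held 310 CPM (290 to 332) and 344 CPM (320 to 369) of Ccl4 and 174 and 110 CPM of Ccl3. Against monocytes the ratio was 12.0 and 16.9 for Ccl4 and 6.03 and 5.88 for Ccl3, where 12.1% and 13.1% of genes were at least 2-fold higher. Against B cells it was 61.3 (32.2 to 135) and 249 (44.6 to 9855) for Ccl4 and 38.8 (19.5 to 90.3) and 26.5 (8.95 to 129) for Ccl3. The male ratios rested on 1 Ccl4 and 3 Ccl3 UMIs in B cells. In these comparisons 24.2% and 26.3% of genes were at least 2-fold higher. The Lyve1-high macrophages held 39.7 and 31.6 CPM of Ccl4 and the Aldh1a2-high macrophages 15.1 and 38.4 CPM. The highest female macrophage held 69 Ccl3, 111 Ccl4 and 26 C1qa UMIs and no lymphocyte marker.

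The 4 clusters of other macrophages all held Ccl4. It was 414 and 596 CPM in the cluster led by AA467197, 261 and 250 CPM in that led by Wfdc17, 202 and 494 CPM in that led by Slc40a1, and 354 and 262 CPM in that led by Zmynd15. Ccl3 was 287 and 222 CPM in the AA467197-led cluster, and its female level in the Zmynd15-led cluster, 226 CPM, rested on 5 cells for 83.7% of the UMIs.

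Ccl5 in dendritic cells rested on few cells. Dendritic cells showed 493 and 255 CPM, and 5 cells gave 87.1% and 89.3% of the UMIs. In the female library 189 of these UMIs were in 1 cell with 118 Gzma, 22 Nkg7 and 7 Klrb1c UMIs. A female cell with 110 Ccl5 UMIs held 2 Cd3e UMIs. The male library had 116 Ccl5 UMIs in 1 dendritic cell with no UMI of Ncr1, Klrb1c, Cd3e, Trac, Nkg7 or Gzma. Other macrophages showed 122 and 63.9 CPM, and 152 of 646 and 83 of 530 cells had a Ccl5 UMI. Cells with a single UMI gave 32.9% of these UMIs in the female and 49.3% in the male library. The highest female cell held 81 Ccl5 and 66 Gzma UMIs, and the highest male cell held 40 Ccl5 UMIs and none of the lymphocyte genes just named. The female to male Ccl5 ratio of other macrophages was 1.09 without other-lineage cells and 6.29 with no doublets removed. The part of free RNA and of undetected doublets in these values was not tested.

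Ccl1 was the rarest member. It had 262 UMIs in 30 of the female cells (0.812%) and 474 UMIs in 14 of the male cells (0.572%). Cells with at least 5 UMIs numbered 11 and 4 and held 229 (87.4%) and 459 (96.8%) of the UMIs. In the female library 7 of the 11 were in the Itga1-led NK cluster, 3 in the Cd40lg-led T cluster and 1 in the unnamed cluster led by Top2a. In the male library 2 were in the Itga1-led NK cluster, 1 in the Cd40lg-led T cluster and 1 was ILC2-like. The Prf1-led NK cluster held 1 Ccl1 UMI in each library. Other macrophages had 0, allowing up to 1.05 CPM in the female and 1.37 CPM in the male library.

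Class levels of Ccl1 therefore rest on few cells. Female conventional NK cells held 53 UMIs over 8 cells, 60.4% of them in 1 cell, and female ILC1-like cells 50 UMIs over 13 cells, 46.0% of them in 1 cell. In the male library 203 of the 204 UMIs of conventional NK cells were in 1 cell, 37 of the 45 of ILC1-like cells in 1 cell, and 206 of the 209 of T cells outside the gates in 1 cell. The female T cells outside the gates held 114 UMIs, of which 70, 25 and 15 were in 3 cells. All 11 female cells with at least 5 UMIs also held Xcl1, 5 held Ifng (interferon gamma), 5 held Csf2 (GM-CSF) and 3 held Tnf. Of the 4 male cells, 3 held each of Xcl1, Ifng and Csf2. The male cell with 203 Ccl1 UMIs held 145 Xcl1 and 64 Ccl4 UMIs.

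The 7 female Ccl1 cells of the Itga1-led cluster were set beside its 520 cells without a Ccl1 UMI. Ccl4 was in 7 of 7 against 40.8%, Ccl3 in 6 of 7 against 22.7%, Csf2 in 3 of 7 against 4.81% and Xcl1 in 7 of 7 against 93.5%. They were also deeper, with a median of 6375 UMIs per cell against 4623.5, and the part of depth was not tested. The 3 female Ccl1 cells of the Cd40lg-led T cluster held Ccl3 and Ccl4 in 0 of 3, against 1.81% and 8.79% of its 387 cells without Ccl1, and Xcl1 in 3 of 3 against 50.6%. The male Ccl1 cell of that cluster held 2 Ccl3 and 10 Ccl4 UMIs.

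Levels of 3 receptors, Ccr1, Xcr1 and Ccr8, were read in the same classes. Ccr1, a receptor of Ccl3 and Ccl5, was 606 and 495 CPM in neutrophils and 152 and 165 CPM in other macrophages. Xcr1, the receptor of Xcl1, was 311 CPM (242 to 393) and 440 CPM (352 to 545) in the dendritic cluster led by Clec9a, a gene of cross-presenting dendritic cells. The cluster led by Cd209a held 0 Xcr1 UMIs in the female library and 2.56 CPM in the male. Ccr8, the receptor of Ccl1, was 31.0 CPM in female and 16.2 CPM in male ILC2-like cells.

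Of the 6 myeloid CC chemokines listed on chromosome 11, Ccl6 and Ccl9 had the most UMIs in macrophages. Ccl6 was 3584 and 3581 CPM and Ccl9 was 2479 and 2256 CPM in Aldh1a2-high macrophages, the class where Ccl4 was 15.1 and 38.4 CPM. In other macrophages Ccl6 was 258 and 302 CPM and Ccl9 was 271 and 251 CPM. The levels there were 42.2 and 34.7 CPM for Ccl2, 30.3 and 24.7 CPM for Ccl7, 1.74 and 2.74 CPM for Ccl8, and 68.4 and 165 CPM for Ccl12.

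The lists of effector, activation and transcription factor genes were compared between the same NK subsets. Of 6 effector genes tested, 0 were at least 2-fold higher and 2 were at least 2-fold lower in ILC1-like cells of each library, where 2.07% of all genes in the female and 1.95% in the male library were lower and 1.76% and 1.83% higher. These were Gzma (granzyme A), at 4010 and 2004 CPM against 9034 and 6924 CPM, and Prf1, at 121 and 137 CPM against 640 and 693 CPM. Prf1 was a naming gene and led a cluster. The list's median log2 ratio was -0.54 and -0.70, against -0.00 and 0.02 over all genes. Ifng was 61.0 and 97.5 CPM in ILC1-like and 84.5 and 124 CPM in conventional NK cells.

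Some genes of recent activation or tissue dissociation were also lower in ILC1-like cells. Of 13 tested in the female and 12 in the male library 4 were at least 2-fold lower, Fos, Egr1, Nr4a1 and Nr4a2 in females and Fos, Fosb, Nr4a2 and Nr4a3 in males, and 0 were higher, beside 2.07% and 1.95% of all genes lower. The median log2 ratio was -0.82 and -0.45. Of the 7 transcription factors Eomes, a gate gene, was past 2-fold lower, and the median was -0.15 and -0.29. Tbx21, the T-bet factor of type 1 lymphocytes, was 91.4 and 104 CPM in ILC1-like and 114 and 127 CPM in conventional NK cells.

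Mean UMIs of the activation list were higher in cells with a Ccl3 UMI, a difference that was not tested. Conventional NK cells with a Ccl3 UMI held a mean of 2.08 activation UMIs per 1000 in the female and 2.91 in the male library, against 0.985 and 1.27 in those without. The medians were 1 with and 1 without Ccl3 in the female library, and 2 and 1 in the male. In other macrophages the means were 3.86 and 3.35 against 1.04 and 0.965. In ILC1-like cells the means were 0.84 and 1.28 against 0.666 and 0.826. The part of tissue digestion in these levels was not tested.

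Across 22 points, 11 classes in 2 libraries, each member had a closest set of genes among 8979. The points of a library share its depth, so these correlations of log2 levels are descriptions. Ccl3 and Ccl4 were each other's closest gene (Pearson r = 0.931), and B3gnt7, Prag1 and 2900026A02Rik were among the 5 closest of both. Ccl5 was closest to Nkg7, a granule protein of cytotoxic lymphocytes (0.968), followed by Gm14029 (0.964), Ifitm10 (0.962), Txk (0.961) and Cst7 (0.956). Xcl1 was closest to the NK receptor genes Klrc2 (0.985), Klrc1 (0.983) and Klre1 (0.978). Ccl1 was closest to Ifng (0.892), on class levels that rest on few cells. Between members Ccl5 and Xcl1 stood at 0.919 and Ccl1 and Ccl3 lowest at 0.334, the latter with the same limit.

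The female to male ratios of Ccl3 and Ccl4 lay farther from 1 in ILC1-like than in conventional NK cells, a difference that was not tested. Ccl3 was 0.293-fold (0.248 to 0.347) and Ccl4 0.306-fold (0.281 to 0.333) of the male level in female ILC1-like cells, where 1.02% of genes passed 2-fold downward in females and 0.597% upward. Thinned shares of cells with Ccl3 were 7.31% (4.79 to 10.6) in the female and 17.9% (11.9 to 25.2) in the male library. After thinning, Ccl4 was in 69 of 342 female and 39 of 140 male cells, shares that lay closer together than the levels. Ccl5 at 1.18 (1.14 to 1.21) and Xcl1 at 0.847 (0.803 to 0.893) stayed under 2-fold. Without the 5 highest cells of each library the ratio of Ccl3 was 0.404 and that of Ccl4 0.356. With the whole Itga1-led cluster in place of the gated cells Ccl3 was 0.530, no longer past 2-fold, and Ccl4 was 0.375. Ccl1 in conventional NK cells was 0.130 of the male level, on the 1 male cell with 203 UMIs.

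In conventional NK cells the ratios of female to male were 0.781 (0.710 to 0.860) for Ccl3, 0.803 (0.760 to 0.849) for Ccl4, 1.11 (1.09 to 1.13) for Ccl5 and 0.843 (0.80 to 0.888) for Xcl1. None of these 4 passed 2-fold, as 0.51% of genes did upward and 0.63% downward. The direction of Ccl4 turned to 1.14 and that of Xcl1 to 1.02 in the cells of the Prf1-led cluster alone. Over all conventional NK cells 4 of 13 activation genes (Fos, Fosb, Nr4a2 and Nr4a3) were past 2-fold lower in the female library and 0 higher, with a median log2 ratio of -0.32 against -0.08 over all genes. In ILC1-like cells 2 of 9 were (Egr1 and Dusp1), with a median of -0.41 against -0.10. Their part in the lower Ccl3 and Ccl4 was not tested.

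**Figure D5:**
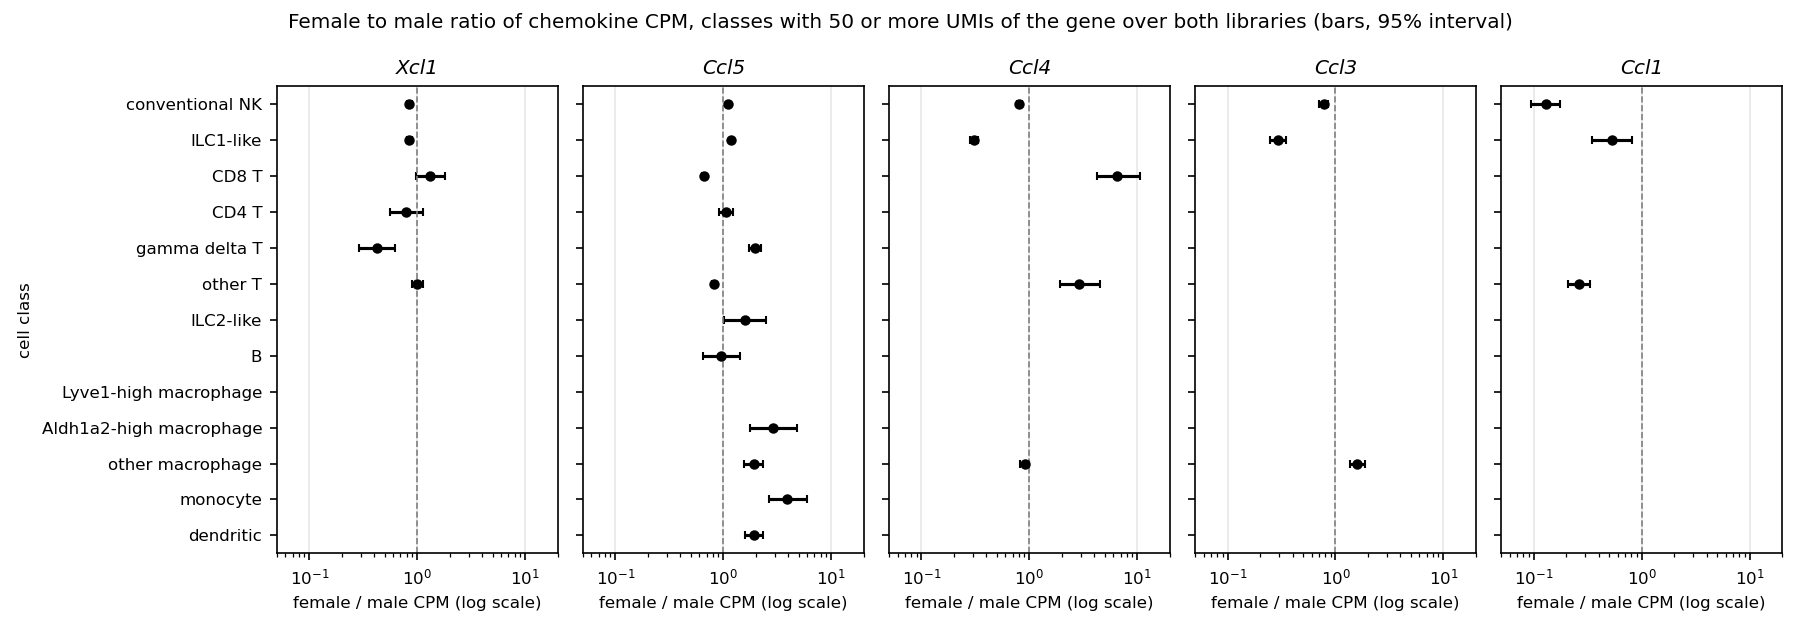
Female to male ratio of each member (log axis) in each class with enough UMIs, with exact 95% intervals for counting error. Ccl3 and Ccl4 in ILC1-like cells lie near 0.3, and Ccl5 and Xcl1 in NK cells lie close to 1.

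In other classes Ccl3 of other macrophages was 1.59 (1.36 to 1.86) and Ccl4 was 0.903 (0.818 to 0.996), where 1.25% of genes passed 2-fold upward in females. Gzma of other macrophages was 46.0 and 11.9 CPM, with 66 of the 132 female UMIs in 1 cell. By cluster, Ccl3 was 0.454 in the Slc40a1-led cluster, where 0.658% of genes passed 2-fold downward, and 3.46 in the Zmynd15-led cluster, where 1.17% passed it upward and 5 female cells gave 83.7% of the UMIs. In T cells outside the gates Xcl1 did not differ between the libraries, at 587 and 586 CPM, and the ratio of Ccl5 was 0.821. Ccl4 was 2.90 (1.92 to 4.54), on 162 and 27 UMIs of which 90 were in 1 female cell, and it became 0.711 with classes by marker z-score. Gzma was 135 and 18.4 CPM in the same cells. Ccl1 was 0.264 (0.208 to 0.333), with 206 of the 209 male UMIs in 1 cell. Upward 1.0% of genes passed 2-fold and downward 0.471%. In CD8 T cells Ccl5 was 0.658, Xcl1 was 1.31 and Ccl4 was 6.52, the last on 1 female cell, with 1.16% of genes past 2-fold upward in females. The Ccl5 ratio of monocytes was 3.92 (2.66 to 5.96), with 0.684% of genes past 2-fold upward and 49.7% of the female UMIs in 5 cells. It turned to 0.840 when cells were classed by marker z-score. In the monocytes as classed from clusters, Gzma was 104 CPM in the female and 23.7 CPM in the male library. The Ccl5 ratio of dendritic cells was 1.93, and it turned to 0.439 with 2 times as many doublets removed and to 0.407 without cells holding genes of another lineage. Gzma in dendritic cells was 178 and 10.3 CPM, and the part of such transcripts in these ratios was not tested. Of the female monocyte UMIs 30 came from 1 cell with 7 Cd3e UMIs and 28 from 1 cell with 7 Ncr1 UMIs.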

How the data were processed

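Single-cell RNA sequencing had been performed on sorted CD45+ adrenal gland cells, with 1 female and 1 male library. The values are raw UMI counts per gene and barcode as deposited by the authors. Per the labels they were counted with Cell Ranger 4.0.0 on mm10, and noise barcodes were removed by the authors with DropletUtils 1.4.3.

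The members, marker lists and gene lists were chosen with earlier results of these data known. Barcodes with at least 200 genes and at most 15% mitochondrial UMIs were kept (3817 of 3963 female, 2502 of 2685 male). The 1.2% ceiling given in the study keeps 327 (8.25%) and 359 (13.4%), and its scale could not be settled. The automatic Scrublet threshold (scanpy 1.11.5) marked 1 and 9 barcodes, so the highest scores were removed at 0.8% per 1000 barcodes, 124 female and 55 male of those that had passed. Clusters were made with Seurat 5.3.0 (sctransform 0.4.2, R 4.3.3), using 2000 integration features, 20 principal components, resolution 1 and 40 genes held out. Clusters were named where at least 3 markers were raised 2-fold and detected in 20% of cells, judged also on the 10 leading genes. The names are rebuilt, so values may differ from the study's.

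NK cells were gated per cell by the larger of the summed UMIs of the conventional and ILC1-like lists. Tied cells entered neither subset but were counted in the NK compartment and the NK clusters. CD8 and CD4 T cells held a UMI of their own gate and none of the other. Gamma delta T cells held neither, with UMIs of Trdc and of a gamma chain constant gene. UMIs were summed per class and divided by the class total (CPM). Shares are given before and after thinning each cell to 1000 UMIs, which leaves out shallower cells. The limit for a count of 0 is 3 UMIs. The background shares are over genes with at least 50 UMIs in the classes compared. Genes named are those of the fixed lists, plus for each member the 5 genes with the highest Pearson r of log2(CPM + 10) over classes of at least 50 cells, among genes with at least 100 UMIs and 20 CPM in 1 sum. Leading genes of clusters and single cells were named after their values were seen. Scripts were tested on simulated data. Part of the receptor list is not reported here.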

Additional observations from a re-analysis of the deposited data

Results flagged for a closer look

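The following values were singled out because the libraries differed in opposite directions between classes, or because UMIs of a member appeared in cells that entered no comparison. None of these differences was tested, and sex and library cannot be told apart.

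The female to male ratio of Ccl3 was 1.59 in other macrophages and 0.293 in ILC1-like cells. The ratio of Ccl4 was 6.52 in CD8 T cells, where 1 female cell held 266 of 291 UMIs, and 0.306 in ILC1-like cells. The ratio of Ccl5 was 3.92 in monocytes and 0.658 in CD8 T cells. The monocyte ratio turned to 0.840 with classes by marker z-score. With the classes made from clusters, Gzma and Nkg7 were past 2-fold higher in female monocytes.

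The clusters that could not be named also held members. The female cells of the cluster led by Adap2os, which has few UMIs per cell, held 365 CPM of Ccl4 and 1897 CPM of Ccl5, and the male cells 179 CPM of Ccl4. Among the 66 female cells the 5 highest for each gene gave 94.1% of the Ccl5 and 83.3% of the Ccl4 UMIs. All 195 Gzma UMIs were in 5 cells. The cell highest for Ccl4 held 21 Ccl4, 1 Ccl5, 0 Gzma and 22 C1qa UMIs. In the cluster led by Cpa3, a mast cell protease, the female cells held 454 CPM of Ccl4 and 503 CPM of Ccl5 and the male cells 828 CPM of Ccl4. Of the female Ccl5 UMIs 66 of 82 were in 1 cell. Of the Ccl4 UMIs 68 in the female and 47 in the male library came from 1 cell each, with 5 and 28 Siglech UMIs. The cycling cells of the cluster led by Top2a held 2393 and 3436 CPM of Ccl5 in the female and male libraries and 480 and 201 CPM of Xcl1. In the female library they also held 79.0 CPM of Ccl1, all from 1 cell with 29 UMIs, and 95.4 CPM of Ccl4. Those cells included some with Cd3e and some with Ncr1 UMIs.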

How the results depend on the processing

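No paired analysis was possible because each sex has 1 library. The ILC1-like to conventional NK ratios of Xcl1, Ccl5 and Ccl3 kept their direction in each library under all 12 alternatives besides the 1.2% ceiling. Over these, the female ratio ran from 1.40 to 2.08 for Xcl1, 0.583 to 0.698 for Ccl5, 0.201 to 0.346 for Ccl3 and 0.254 to 0.501 for Ccl4, and the male ratio from 1.35 to 2.65, 0.610 to 0.721, 0.450 to 0.805 and 0.838 to 1.05. Clusters at resolution 2 and a minimum of 500 genes moved nothing. The alternatives on NK clusters and on the highest cells of both subsets were chosen after seeing the data. The causes of the movements were not tested.

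With the NK subsets taken as clusters, the ratios for Xcl1, Ccl5 and Ccl4 were 2.08, 0.623 and 0.303 in the female library, and for Xcl1, Ccl5, Ccl4 and Ccl3 2.65, 0.721, 0.883 and 0.450 in the male. Without conventional cells of the Itga1-led cluster they were 2.06 (Xcl1), 0.583 (Ccl5), 0.254 (Ccl4) and 0.201 (Ccl3) in the female and 2.49 (Xcl1), 0.617 (Ccl5) and 0.548 (Ccl3) in the male library. Without the 5 highest cells they were 1.56 (Xcl1) and 0.302 (Ccl4), and 1.69 (Xcl1), 0.625 (Ccl5), 0.838 (Ccl4) and 0.588 (Ccl3). As a mean of each cell's own CPM they were 1.59 (Xcl1), 0.624 (Ccl5) and 0.298 (Ccl4), and 1.61, 0.610, 0.880 and, for Ccl3, 0.680. Without cells holding other-lineage genes they were 1.57 (Xcl1), 0.655 (Ccl5) and 0.501 (Ccl4), and 1.57 (male Xcl1). By marker z-score without clusters the female ratios were 1.47, 0.698, 0.432 and 0.346, and with no doublets removed 1.5 (Xcl1) and 0.417 (Ccl4). The 1.2% ceiling left 8 female conventional and 2 ILC1-like cells, with ratios of 5.45, 0.260, 0.0380 and 0.0191, and 6 and 0 male cells. The female to male ratios of Ccl3 and Ccl4 in ILC1-like cells were 0.404 and 0.356 without the 5 highest cells and 0.530 and 0.375 between clusters. That of Ccl4 was 0.371 without other-lineage cells and 0.277 as a mean of cells. With a pseudocount of 1 CPM and no minimum level, 14 of the 25 closest genes were shared.

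Some directions turned. The male ILC1-like to conventional ratio of Ccl1, on 1 cell, became 142 between clusters and 39.9 without the Itga1-led conventional cells. The female one was 1.32 as gated, 51.7 between clusters, 37.8 without those conventional cells and 0.908 by marker z-score. The female to male ratio in conventional NK cells became 1.10 between clusters and 1.14 without those cells for Ccl4, and 1.03 and 1.02 for Xcl1. In ILC1-like cells that of Ccl1 became 2.53 without other-lineage cells and 4.64 without the 5 highest cells. By z-score, Ccl4 in T cells outside the gates became 0.711 and Ccl5 in monocytes 0.840. Ccl4 in other macrophages became 1.23 as a mean of cells. Ccl5 in dendritic cells became 0.439 with 2 times as many doublets removed and 0.407 without other-lineage cells. Under the 1.2% ceiling, with few cells left, the ratios became 1.84, 2.93 and 1.42 for Ccl3, Ccl4 and Xcl1 in conventional NK cells, 2.30 for Ccl5 in CD8 T cells, and 0.990 and 2.38 for Ccl3 and Ccl4 in other macrophages. The Ccl1 values rest on 262 and 474 UMIs.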
